A study of Mus musculus with 12 samples.

Results

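Liver RNA-seq at 18 months of age (aged) was compared with liver RNA-seq at 12 months (middle-aged). The members were chosen by age alone: the 4 aged and the 4 middle-aged livers, 8 of the 12 in the series, over every Ensembl gene in the count table and without its 92 synthetic spike-in transcripts. All 12 mice were C57BL/6N, an inbred laboratory strain, and the study's methods describe males fed ad libitum; the labels name no transgene or treatment in either group, and each liver came from a separate animal. The 4 livers of 3 months (young) entered the fit that estimated the spread and are given as levels, with fold changes against them for Chka, Nfil3 and Mmp14 only. The labels and the study's methods describe total RNA and a strand-specific library kit for young and old livers only, and where the study follows mRNA over 3 ages it draws on a public ageing atlas, Tabula Muris Senis. Whether these 12 libraries were made in the study or taken from that atlas is therefore uncertain, and so are their preparation and the housing; the labels give no hour of sampling.

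The liver changes its output of enzymes and secreted proteins over the day, with feeding and with hormones, and much of this runs through transcription. Its clock is a loop in which the activators ARNTL and CLOCK drive the genes of their own repressors, the PER and CRY proteins, while REV-ERB and ROR receptors set the level of Arntl. Regulators at the output of the loop, among them DBP, TEF and the repressor NFIL3, pass the rhythm to genes of lipid, amino acid and drug metabolism.

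Gene counts in the 8 libraries ranged from 9238313 to 10527159, so the floor of 3 counts corresponded to 0.285 to 0.325 CPM (a share of the total scaled to 1e6 counts); such limits cover counting error only. Between 16629 and 19982 genes had at least 1 count, the highest number in middle-aged replicate 1, and mitochondrially encoded genes took 6.45 to 9.03% of gene counts in middle-aged and 5.48 to 7.53% in aged livers. Young replicate 2, which entered the fit, stood apart. Mitochondrially encoded genes took 19.2% of its gene counts, and spike-ins 10.6% of all its counts, against 1.59 to 3.51% in the 8 livers. No 2 replicates of an age agreed within sampling noise. The make-up of the spike-ins divided the libraries into replicates 1 and 2 of each age (set A) and replicates 3 and 4 (set B), and aged replicates 3 and 4 lay apart from aged replicates 1 and 2 in many metabolic genes, so late changes are given over all livers and within each set. Defining hepatocyte markers were high at both ages: the summed normalised count of 9 matched markers was 836933 to 946272 in middle-aged and 863000.2 to 1083705 in aged livers.

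Few genes were called between 12 and 18 months. By DESeq2 117 of 10236 tested genes passed an adjusted p of 0.05 (1.14% of them), with 55 higher (0.537%) and 62 lower (0.606%) in aged livers. The called changes were small: the median log2 fold change was 0.53 among the genes that rose and -0.63 among those that fell, and 24 of the 117 changed at least 2-fold, 8 upward and 16 downward. The 4 aged values did not overlap the 4 middle-aged values for 108 of the 117 genes, against 6.55% of all tested genes. All 117 had the same sign within set A as within set B. The 117 were chosen over these same livers, so the lack of overlap and the shared sign follow largely from that choice. Within the sets, 12 of them were called in the fit of set A and 60 in the fit of set B, and 10 of these were called in both. edgeR's quasi-likelihood test called 13 of 12099 genes (0.107%), all 13 among the 117, and limma-voom called 47 of the 117. Across all tested genes the median log2 fold change was 0.01, with 51.2% of genes above 0, and 9.94% of tested genes had an unadjusted p under 0.05. Leaving out aged replicate 1 raised the count to 198, and leaving out middle-aged replicate 4 lowered it to 45; counts without each of the other livers lay between 55 and 107. Of the genes named below, Chka, Clpx, Dbp, Nfil3, Per3, Tef and Upp2 were called under every alternative that gave them an adjusted p. Other calls were often lost: Gnmt under 16 of 21 alternatives, Msmo1 and Insig1 under 15, Lrfn3 under 14, and Tmem131l and Mmp14 under 13. Slc2a5 and Fga lost theirs under 12 of 21, Cry2 under 11 of 21, Sox9 under 10 of 18 and Dpt under 13 of 17.

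The plot of the largest changes shows 28 genes, 14 that rose and 14 that fell, taken by size among called genes averaging 50 or more normalised counts and showing no overlap between the ages. Clock genes stood at both ends, with Dbp and Per3 lowest and Arntl and Nfil3 highest. For Dbp, Mknk2 and Gnat1 the aged livers of set B lay below those of set A, and for Tubb2a and Cry1 they lay above.

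**Figure D1:**
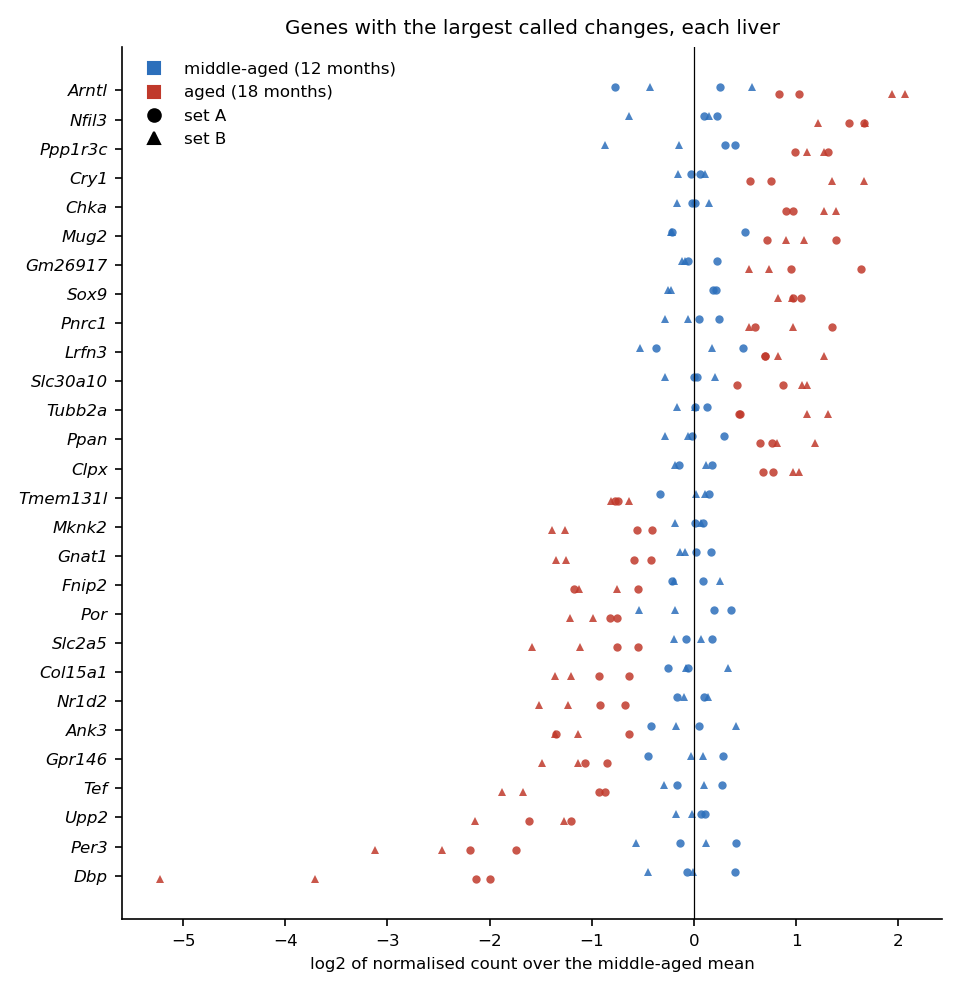
Normalised counts of 28 genes in each of the 8 livers, as log2 of the ratio to the middle-aged mean (blue, 12 months; red, 18 months; circles, set A; triangles, set B). In every gene shown the red points lie on 1 side of the blue ones; Dbp reaches lowest, with 18.4 normalised counts in aged replicate 3.

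In the core clock loop, 5 of 14 tested genes were called, 2 upward and 3 downward, against 1.14% of all tested genes, and the median of the list was -0.18. Arntl (ENSMUSG00000055116, plus strand of chromosome 7 from 113207465 to 113314126) encodes the activating partner of CLOCK. Its normalised counts were 34.8, 70.9, 88.3 and 44.1 in the middle-aged livers and 106, 121, 249 and 228 in the aged livers. All aged livers were above all middle-aged ones, and the set B pair was highest (DESeq2 adjusted p = 0.0117, log2 fold change 1.56 ± 0.39 SE). edgeR's adjusted p for it was 0.165 and limma-voom's 0.0583. The repressor gene Cry1 (ENSMUSG00000020038, minus strand of chromosome 10 from 85131700 to 85185064) had 53.6, 50.3, 55.6 and 46.1 in the middle-aged livers and 75.3, 86.7, 163 and 131 in the aged livers, again without overlap (DESeq2 adjusted p = 0.00261, log2 fold change 1.15 ± 0.26 SE). Its paralogue Cry2 moved the other way, from 260.1, 290.0, 272 and 267 to 213, 208, 154 and 137 (DESeq2 adjusted p = 0.0373, log2 fold change -0.62 ± 0.17 SE).

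Per3 (ENSMUSG00000028957, minus strand of chromosome 4 from 151003652 to 151044665), a period gene of the repressing arm, was at 111, 76.3, 56.5 and 91.2 in the middle-aged livers and 25.1, 18.3, 9.61 and 15.2 in the aged livers. The highest aged value was less than the lowest middle-aged one (DESeq2 adjusted p = 1.78e-07, log2 fold change -2.31 ± 0.36 SE), and edgeR also called it (adjusted p = 0.0135). The REV-ERB receptor gene Nr1d2 (ENSMUSG00000021775, minus strand of chromosome 14 from 18204054 to 18239127) fell from 738, 613, 643 and 757 to 364, 429.6, 240.3 and 292 (DESeq2 adjusted p = 3.6e-05, log2 fold change -1.05 ± 0.19 SE). The other tested members of the loop did not pass the test. On the log2 scale the fold change of Per2 was -0.65 ± 0.23 SE (DESeq2 adjusted p = 0.186), Per1 -0.21 ± 0.44, Nr1d1 -0.31 ± 0.24, Clock 0.21 ± 0.15, Rora -0.15 ± 0.11, Csnk1d 0.03 ± 0.08 and Csnk1e 0.06 ± 0.27. Npas2, which can stand in for CLOCK, was too low to be given an adjusted p; it counted 0.993, 11.7, 10.6 and 6.01 in the middle-aged livers and 19.1, 19.3, 83 and 47.4 in the aged livers, without overlap. The called genes of the loop thus did not move in 1 direction: Arntl and Cry1 levels were higher, while Per3, Cry2 and Nr1d2 levels were lower.

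Of 9 tested clock output regulators, 4 were called, 1 higher and 3 lower, against 1.14% of all tested genes, with a list median of -0.49. Dbp (ENSMUSG00000059824, plus strand of chromosome 7 from 45705088 to 45710203) encodes an activator of genes of drug and lipid metabolism. It counted 908, 657, 503 and 687 in the middle-aged livers and 173, 157, 18.4 and 52.7 in the aged livers. Every aged liver was below every middle-aged one (DESeq2 adjusted p = 0.000355, log2 fold change -2.78 ± 0.56 SE), and the fall was larger in set B (-4.06) than in set A (-2.25), a difference of -1.82 ± 0.45 SE (DESeq2 interaction test, adjusted p = 0.00977). Tef (ENSMUSG00000022389, plus strand of chromosome 15 from 81802421 to 81826863), from the same family of activators, fell from 1156, 853, 779.7 and 1023 to 523, 501, 259 and 299 (DESeq2 adjusted p = 5.77e-06, log2 fold change -1.27 ± 0.21 SE). The opposing repressor Nfil3 (ENSMUSG00000056749, minus strand of chromosome 13 from 52967209 to 52981073), which binds the same sites, rose from 192, 175, 181 and 105 to 518, 467, 522 and 379 (DESeq2 adjusted p = 1.65e-08, log2 fold change 1.53 ± 0.22 SE). The lowest aged value of Nfil3 was well above the highest middle-aged one, and it changed by 1.43 in set A and 1.66 in set B on the log2 scale. The repressor gene Bhlhe41 counted 48.7, 35, 45 and 30.1 in the middle-aged livers and 23.1, 12.5, 6.12 and 10.7 in the aged livers (DESeq2 adjusted p = 0.0154, log2 fold change -1.61 ± 0.41 SE). Among the rest, Klf10 had -0.87 ± 0.31 SE (DESeq2 adjusted p = 0.171), Bhlhe40 -0.49 ± 0.26, Hlf -0.18 ± 0.18 and Klf15 -0.15 ± 0.20. Ciart was without an adjusted p, at 22.8, 23.3, 15 and 13 in the middle-aged livers and 5.02, 1.93, 1.75 and 6.26 in the aged livers. Noct, a rhythmically expressed relative of the deadenylases, had a log2 fold change of 0.15 ± 0.55 SE over all livers and opposite signs in the 2 sets, given further on.

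Promoters were examined for the letters that these factors bind. Of the 117 called genes, 99 had a promoter in the RefSeq table (GRCm38.p6), 48 higher and 51 lower in aged livers, and 250 bases before the start site were searched on both strands. The E-box CACGTG, the site of ARNTL with CLOCK and of BHLHE41, was in 9 of 51 promoters of genes that fell (17.6%) and 4 of 48 of genes that rose (8.33%), against 10.3% of 8120 tested genes with a promoter and 6.86% of all 27025 genes in the table. The D-box TTATGTAA or TTACGTAA, the site of DBP, TEF and NFIL3, was in 2 genes that fell, Per3 and Map2k6, and 0 that rose (0.85% of tested and 1.09% of all). The receptor element TAGGTCA or TGGGTCA, bound by ROR and REV-ERB, was in 5 genes that rose, namely Insig2, Nfil3, Nlrp12, Nop58 and Slc45a3, and in 1 that fell, Jade1 (5.41% of tested and 6.15% of all). An E-box and a receptor element can share the letters CA where they meet. A match describes the sequence and not binding. A gene counted as holding a motif when any of its promoters in the table did. The promoters below belong to clock genes that fell (Per3, Tef, Bhlhe41) or rose (Cry1, Nfil3) and to 2 metabolic genes that rose (Ppp1r3c, Insig2), each as the 250 bases before a RefSeq start, with the motif in capitals: 2 D-boxes in Per3 (chr4:151044666-151044915, minus strand), 1 E-box in each of Tef (chr15:81802423-81802672, plus strand), Bhlhe41 (chr6:145865421-145865670, minus strand), Cry1 (chr10:85185055-85185304, minus strand) and Ppp1r3c (chr19:36736605-36736854, minus strand), and 1 receptor element in Nfil3 (chr13:52981040-52981289, minus strand) and Insig2 (chr1:121328025-121328274, minus strand). In Tef, Nfil3 and Insig2 the motif lies before the RefSeq start but inside the GENCODE gene, whose start is further upstream, and Tef and Insig2 have 2 and 3 promoters in the table, of which 1 is shown.
Per3: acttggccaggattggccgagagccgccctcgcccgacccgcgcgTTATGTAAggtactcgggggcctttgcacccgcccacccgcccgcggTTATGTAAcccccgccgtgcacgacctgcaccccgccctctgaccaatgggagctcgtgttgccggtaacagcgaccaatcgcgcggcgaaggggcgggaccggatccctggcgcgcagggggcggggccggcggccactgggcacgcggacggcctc
Tef: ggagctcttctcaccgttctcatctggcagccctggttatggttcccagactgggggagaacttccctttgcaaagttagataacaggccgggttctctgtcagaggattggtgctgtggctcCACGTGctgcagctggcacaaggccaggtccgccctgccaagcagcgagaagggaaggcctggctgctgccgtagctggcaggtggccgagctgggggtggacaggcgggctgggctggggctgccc
Bhlhe41: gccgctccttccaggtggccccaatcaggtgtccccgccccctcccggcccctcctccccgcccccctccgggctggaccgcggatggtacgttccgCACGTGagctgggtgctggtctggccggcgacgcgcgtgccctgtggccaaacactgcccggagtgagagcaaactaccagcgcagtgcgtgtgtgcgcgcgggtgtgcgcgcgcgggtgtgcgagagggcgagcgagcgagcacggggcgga
Cry1: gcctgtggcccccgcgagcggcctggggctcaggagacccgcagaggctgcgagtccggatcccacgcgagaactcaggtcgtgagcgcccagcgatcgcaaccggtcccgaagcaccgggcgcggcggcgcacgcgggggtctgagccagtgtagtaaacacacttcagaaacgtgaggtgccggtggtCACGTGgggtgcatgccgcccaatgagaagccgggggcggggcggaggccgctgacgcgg
Nfil3: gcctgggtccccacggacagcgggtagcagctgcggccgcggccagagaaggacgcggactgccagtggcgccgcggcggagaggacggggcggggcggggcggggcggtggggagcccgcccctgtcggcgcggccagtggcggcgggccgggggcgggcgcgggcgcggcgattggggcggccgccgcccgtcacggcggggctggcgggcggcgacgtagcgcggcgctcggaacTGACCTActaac
Ppp1r3c: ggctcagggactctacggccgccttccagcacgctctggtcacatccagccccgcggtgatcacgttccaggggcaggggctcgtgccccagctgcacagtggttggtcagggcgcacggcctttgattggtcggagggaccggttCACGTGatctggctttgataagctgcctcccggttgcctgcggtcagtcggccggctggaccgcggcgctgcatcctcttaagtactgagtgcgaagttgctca
Insig2: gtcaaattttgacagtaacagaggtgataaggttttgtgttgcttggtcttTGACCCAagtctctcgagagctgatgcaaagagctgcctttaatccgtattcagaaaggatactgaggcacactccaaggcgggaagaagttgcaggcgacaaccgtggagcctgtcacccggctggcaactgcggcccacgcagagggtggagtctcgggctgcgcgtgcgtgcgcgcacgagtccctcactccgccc

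In the list of cholesterol synthesis and LDL uptake, 3 of 24 tested genes were called lower and 0 higher, against 0.606% and 0.537% of all tested genes. Of the 24 fold changes, 23 were below 0 (median -0.31), where 51.2% of all tested genes lay above 0. Msmo1 (ENSMUSG00000031604, minus strand of chromosome 8 from 64718139 to 64733792) encodes a sterol methyl oxidase of the pathway. Its counts were 2839, 3207, 2507 and 2975 in the middle-aged livers and 2419.6, 1561, 1597 and 2245 in the aged livers. The highest aged value was just below the lowest middle-aged one (DESeq2 adjusted p = 0.0489, log2 fold change -0.56 ± 0.16 SE). Insig1 encodes a protein that retains the sterol sensor in the endoplasmic reticulum and was lower too (4229.6 ± 626 at 12 months and 3118 ± 338 at 18 months, SD, n = 4, DESeq2 adjusted p = 0.0444, log2 fold change -0.44 ± 0.13 SE), although aged replicate 1, at 3599, was above middle-aged replicate 3, at 3456. Its paralogue Insig2, outside the list, rose, with 1075 ± 142 at 12 months and 1756 ± 550.1 at 18 months (DESeq2 adjusted p = 0.0221, log2 fold change 0.71 ± 0.19 SE). DESeq2's calls of Msmo1 and Insig1 were each lost under 15 of 21 alternatives. Another 8 genes of the list had an unadjusted p under 0.05, all below 0, where 9.94% of all tested genes had such a p. The median of the list was -0.46 within set A and -0.13 within set B, and no member differed between sets by the interaction test.

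Por (ENSMUSG00000005514, plus strand of chromosome 5 from 135670033 to 135735326) encodes the reductase that passes electrons to microsomal cytochromes P450 and to sterol enzymes. It counted 2401, 2708, 1442 and 1844 in the middle-aged livers and 1249, 1189, 908 and 1057 in the aged livers. The aged livers were below the middle-aged ones throughout (DESeq2 adjusted p = 9.46e-05, log2 fold change -0.93 ± 0.18 SE), in set A (-1.06) and in set B (-0.73). It was the 1 called gene among 33 tested in the list of Cyp1, Cyp2 and Cyp3 drug-metabolising enzymes, whose median was 0.10. Ppargc1b, a coactivator of lipid synthesis genes, fell as well (58.6 ± 14.6 at 12 months and 26.3 ± 7.24 at 18 months, SD, n = 4, DESeq2 adjusted p = 0.00763, log2 fold change -1.16 ± 0.28 SE). So did Gpr146, a liver receptor linked to plasma cholesterol, from 1234, 742, 988 and 1078 to 482, 559, 362 and 459 (DESeq2 adjusted p = 0.000118, log2 fold change -1.12 ± 0.21 SE). Lpin2, a phosphatidate phosphatase, had 1868 ± 170.2 at 12 months and 1145 ± 326 at 18 months (SD, n = 4, DESeq2 adjusted p = 0.0216, log2 fold change -0.71 ± 0.19 SE). None of 17 tested genes of fatty acid synthesis was called over all livers (median -0.25). Likewise 0 of 33 PPAR alpha targets and fatty acid oxidation genes were called by DESeq2 and 8 had an unadjusted p under 0.05, all above 0, against 9.94% of all tested genes (median 0.14).

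Chka rose, and DESeq2 called it within each set as well. Chka (ENSMUSG00000024843, plus strand of chromosome 19 from 3851773 to 3894369) encodes choline kinase alpha, the first enzyme of phosphatidylcholine synthesis from choline. It counted 188, 191, 211 and 169 in the middle-aged livers and 355, 372, 499 and 460.4 in the aged livers. The lowest aged value was far above the highest middle-aged one, and DESeq2 (DESeq2 adjusted p = 2.6e-11, log2 fold change 1.15 ± 0.15 SE) and edgeR (adjusted p = 0.00566) both called it. Young livers, at 332 ± 44.7 (SD, n = 4), lay between the other means. The phospholipid genes Etnk2, an ethanolamine kinase, and Gpcpd1, a glycerophosphocholine phosphodiesterase, fell instead (-0.60 ± 0.17 and -0.69 ± 0.19 SE on the log2 scale, DESeq2 adjusted p = 0.0411 and 0.0382).

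Sugar, nucleoside and one-carbon genes gave a few calls. Ppp1r3c (ENSMUSG00000067279, minus strand of chromosome 19 from 36731731 to 36736653), a subunit that brings protein phosphatase 1 to glycogen, was at 548, 586, 401 and 243 in the middle-aged livers and 883, 1108, 1073 and 960.1 in the aged livers. Young livers, at 419 ± 159.6, were near the middle-aged level, and every aged value was above every middle-aged one (DESeq2 adjusted p = 0.00748, log2 fold change 1.18 ± 0.29 SE). It was the 1 called gene of 16 tested in glycogen metabolism. Slc2a5, the fructose transporter gene, went the other way, from 136, 114, 126 and 105 to 82.3, 71.3, 40.2 and 55.4 (DESeq2 adjusted p = 0.0226, log2 fold change -0.96 ± 0.25 SE). Of 14 tested genes of nucleoside uptake and breakdown, 1 was called higher and 2 lower, against 0.537% and 0.606% of all tested genes. Upp2 (ENSMUSG00000026839, plus strand of chromosome 2 from 58567298 to 58792971), a uridine phosphorylase, was at 3959.6, 4072, 3334 and 3723 in the middle-aged livers and 1644, 1234, 856 and 1563 in the aged livers. The highest aged value was less than the lowest at 12 months, and it had the smallest adjusted p of any gene that fell (DESeq2 adjusted p = 2.57e-11, log2 fold change -1.51 ± 0.19 SE). It changed by -1.48 in set A and -1.54 in set B on the log2 scale. Tymp, a thymidine phosphorylase, rose, with 671 ± 59 at 12 months and 900.3 ± 45.1 at 18 months (SD, n = 4, DESeq2 adjusted p = 0.0028, log2 fold change 0.42 ± 0.09 SE), and Uox, which oxidises uric acid, fell, with 29446 ± 1998 at 12 months and 22841 ± 1929.9 at 18 months (DESeq2 adjusted p = 0.00261, log2 fold change -0.37 ± 0.08 SE).

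In the methionine and one-carbon cycle 2 of 19 tested genes were called, against 1.14% of all tested genes. Gnmt, the glycine methyltransferase that uses up S-adenosylmethionine, was lower, at 32546 ± 1068 at 12 months and 25921 ± 3784 at 18 months (SD, n = 4, DESeq2 adjusted p = 0.0478, log2 fold change -0.33 ± 0.09 SE). Amino acid transporter genes Slc38a3, Slc38a4 and Slc7a2 fell as well, with log2 fold changes of -0.57 ± 0.13, -0.40 ± 0.11 and -0.68 ± 0.18 SE (DESeq2 adjusted p = 0.0028, 0.0249 and 0.0199), and so did the proline dehydrogenase gene Prodh (-0.48 ± 0.14, DESeq2 adjusted p = 0.0414). None of 16 tested urea cycle and nitrogen genes was called by DESeq2, but 13 lay below 0, where 51.2% of all tested genes lay above 0 (list median -0.21). Of the 16, 9 had an unadjusted p under 0.05, 8 of them below 0, against 9.94% of all tested genes. The smallest of these p-values belonged to Arg1 (-0.28), Gls2 (-0.36) and Ass1 (-0.32). Insulin signalling had 1 call in 24, the transcription factor gene Foxo3, from 443, 475, 434 and 419 to 348, 336, 249.9 and 271 (DESeq2 adjusted p = 0.0028, log2 fold change -0.56 ± 0.12 SE).

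**Figure D2:**
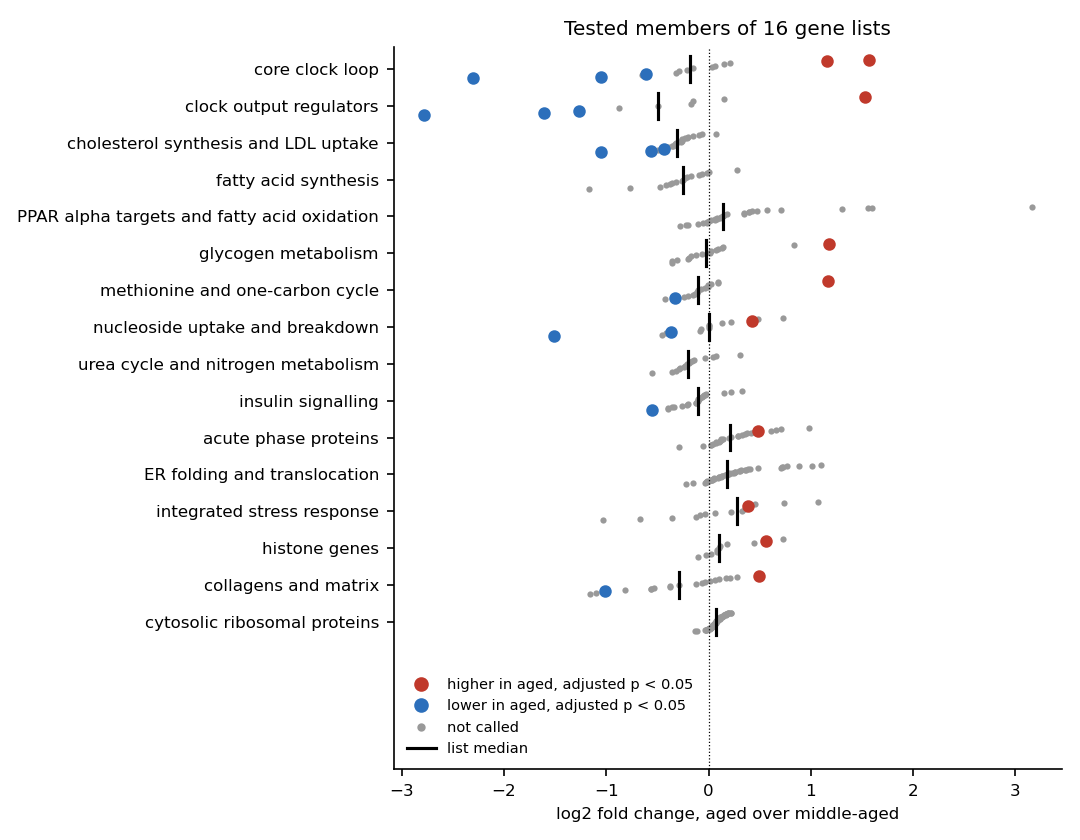
Log2 fold change, aged over middle-aged, of each tested member of 16 gene lists (1 point a gene; red, called higher; blue, called lower; grey, not called; black bar, list median; dotted line, median of all tested genes, 0.01). The clock lists hold 9 called members, and the lists of cholesterol synthesis and of nucleoside breakdown 3 each; the ribosomal protein genes lie close to 0.

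Several genes with large changes belonged to none of the lists. Wee1 (ENSMUSG00000031016, plus strand of chromosome 7 from 110122046 to 110143286), a kinase gene that restrains entry into mitosis, was at 81.4, 71.8, 32.7 and 59.1 in the middle-aged livers and 19.1, 15.4, 22.7 and 17 in the aged livers. The ages did not overlap (DESeq2 adjusted p = 0.000303, log2 fold change -1.72 ± 0.34 SE). Usp2, a ubiquitin protease gene, counted 97.3, 113, 41.5 and 59.1 in the middle-aged livers and 16.1, 22.2, 8.74 and 15.2 in the aged livers (DESeq2 adjusted p = 2.76e-05, log2 fold change -2.33 ± 0.42 SE). It showed no overlap either, and edgeR called both genes (adjusted p = 0.0438 and 0.0438), while limma-voom called neither (adjusted p = 0.113 and 0.0583). Within set B Wee1 was not called (DESeq2 adjusted p = 0.686). Narf was at 634, 594, 555 and 577 in the middle-aged livers and 365, 436, 299.7 and 337 in the aged livers (DESeq2 adjusted p = 2.75e-05, log2 fold change -0.72 ± 0.13 SE). Ank3, an ankyrin that ties membrane proteins to the cytoskeleton, had a log2 fold change of -1.09 ± 0.26 SE, the folliculin-interacting gene Fnip2 of -0.88 ± 0.22, the kinase gene Mknk2 of -0.84 ± 0.19, Tmem131l of -0.74 ± 0.19 and Gnat1, best known as the transducin of rod photoreceptors, of -0.84 ± 0.20 (DESeq2 adjusted p = 0.00606, 0.0121, 0.00361, 0.019 and 0.00434).

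Among the genes that rose, Clpx (ENSMUSG00000015357, plus strand of chromosome 9 from 65294260 to 65330658) encodes the unfolding subunit of the mitochondrial ClpXP protease. Its counts were 1482, 1849, 1776 and 1437 in the middle-aged livers and 2608, 2791, 3343 and 3197 in the aged livers. Every aged liver exceeded every middle-aged one (DESeq2 adjusted p = 1.06e-08, log2 fold change 0.87 ± 0.12 SE), with an edgeR adjusted p of 0.0124. The young level was 2141 ± 279.9 (SD, n = 4). Rnf144b, a ubiquitin ligase gene, rose from 257, 304, 268 and 304 to 394, 446, 428 and 459 (DESeq2 adjusted p = 1.03e-05, log2 fold change 0.61 ± 0.11 SE). Pxmp4, a peroxisomal membrane protein gene, rose from 593, 646, 647 and 589 to 788, 973, 1100.2 and 915 (DESeq2 adjusted p = 0.000118, log2 fold change 0.61 ± 0.12 SE), the last of the 13 genes that edgeR also called (adjusted p = 0.0496). Slc30a10, a manganese exporter, was higher by 0.89 ± 0.18 SE on the log2 scale, the nuclear receptor coactivator Pnrc1 by 0.90 ± 0.18, the tubulin gene Tubb2a by 0.88 ± 0.20 and the ribosome assembly gene Ppan by 0.87 ± 0.18 (DESeq2 adjusted p = 0.000309, 0.000479, 0.00261 and 0.000772). Lrfn3 rose by 0.89 ± 0.24 (DESeq2 adjusted p = 0.0298). Mug2, a secreted protease inhibitor of the alpha-macroglobulin family, was at 4334, 2638, 2634 and 2607 in the middle-aged livers and 5016, 7990.1, 6448 and 5706 in the aged livers (DESeq2 adjusted p = 0.000118, log2 fold change 1.04 ± 0.20 SE). Reads of Mug2 can be shared with its close paralogues. The lincRNA Gm26917 was at 887, 725, 714 and 699.6 in the middle-aged livers and 2352, 1461, 1101 and 1263 in the aged livers, and its highest value was in aged replicate 1 (DESeq2 adjusted p = 0.00481, log2 fold change 1.03 ± 0.24 SE).

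A number of called genes of RNA processing and ribosome assembly, named here after their values were seen, were also higher. They included the nucleolar genes Nop58 (0.71 ± 0.20 SE) and Nolc1 (0.78 ± 0.21), the GTPase of large-subunit assembly Gtpbp4 (0.45 ± 0.13), Sbds (0.32 ± 0.08), the splicing factors Srsf7 (0.47 ± 0.13), Tra2a (0.55 ± 0.16), Prpf6 (0.42 ± 0.11) and Rbm39 (0.32 ± 0.09), the RNA-binding Sfpq (0.52 ± 0.10) and Hnrnpu (0.29 ± 0.08), and the initiation factor subunit Eif3a (0.32 ± 0.08). Their DESeq2 adjusted p-values were 0.0363, 0.0221, 0.0484, 0.0195, 0.0382, 0.0484, 0.0269, 0.0264, 0.000308, 0.0312 and 0.0216 in that order. No list of such genes was tested. The threonyl-tRNA synthetase gene Tars rose, with 1783 ± 121 at 12 months and 2329.6 ± 148 at 18 months (SD, n = 4, DESeq2 adjusted p = 9.46e-05, log2 fold change 0.39 ± 0.07 SE).

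Stress and secretory genes gave few calls. Of 16 tested genes of the integrated stress response, the transcription factor gene Atf5 was called, from 4603, 4682, 4081 and 4435 to 5563, 6407, 6016 and 5209 (DESeq2 adjusted p = 0.00593, log2 fold change 0.38 ± 0.09 SE), and the list median was 0.27. Of 43 genes of protein folding and translocation in the endoplasmic reticulum, 0 were called by DESeq2 and 36 lay above 0, against 51.2% of all tested genes (list median 0.18). An unadjusted p under 0.05 was found for 12, all above 0, against 9.94% of all tested genes. The protein disulfide isomerase genes P4hb and Pdia3 had fold changes of 0.26 and 0.36 and the chaperone Dnajb9 of 1.01 (DESeq2 adjusted p = 0.0943, 0.148 and 0.23). The median of that list was 0.31 within set A and 0.04 within set B. Of 26 acute phase genes, the fibrinogen chain Fga was called, from 31109, 38406, 37461 and 36762 to 47233, 57466, 51658 and 44062 (DESeq2 adjusted p = 0.0344, log2 fold change 0.48 ± 0.13 SE). In that list 24 of the 26 lay above 0, against 51.2% of all tested genes (list median 0.21). Of 11 histone genes the linker histone Hist1h1c rose (469.7 ± 93.2 at 12 months and 690.4 ± 41.5 at 18 months, SD, n = 4, DESeq2 adjusted p = 0.00739, log2 fold change 0.56 ± 0.13 SE). Of 46 genes of RNA polymerase II and pausing factors, 0 were called by DESeq2. An unadjusted p under 0.05 was found for 5, all above 0, a share close to the 9.94% of all tested genes. Of the 46, 35 lay above 0, against 51.2% of all tested genes (list median 0.11). Hexim1 (0.34), Leo1 (0.45) and Nelfa (0.72) were nearest the threshold (DESeq2 adjusted p = 0.052, 0.0677 and 0.078).

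The 77 ribosomal protein genes had a median of 0.08 and the 76 nuclear respiratory chain genes of 0.05. DESeq2 called 0 of them, and 0 had an unadjusted p under 0.05. Complement and coagulation (35 tested), cytosolic heat shock chaperones (28), the major urinary proteins (18) and mitochondrially encoded genes (7) likewise had 0 calls and 0 genes under that unadjusted threshold. All 7 mitochondrially encoded genes lay below 0 (list median -0.27), where 51.2% of all tested genes lay above 0. Across all 54 lists, 14 held at least 1 called gene and 27 of the 117 called genes were in a list, 9 of them in the 2 clock lists. The calls of each list stand against 1.14% of all tested genes.

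Markers of other liver cells mostly overlapped between the ages. In bulk tissue fewer cells of a type and less RNA per cell cannot be told apart. The biliary marker Sox9, a transcription factor of duct cells, rose from 47.7, 46.7, 34.4 and 35.1 to 80.3, 84.8, 72.5 and 79.6 (DESeq2 adjusted p = 0.0117, log2 fold change 0.95 ± 0.24 SE), while the summed count of 12 biliary markers was 642 to 1072 in middle-aged and 805 to 1022 in aged livers. Sox9 was the 1 of 8 tested biliary markers that was called, and 5 of the 8 lay below 0 (list median -0.10). Of the collagens and matrix genes, 2 of 21 were called, against 1.14% of all tested genes. The basement membrane collagen Col15a1 went from 92.3, 106, 139 and 104 to 71.3, 57.8, 48.1 and 42.9 (DESeq2 adjusted p = 0.00335, log2 fold change -1.01 ± 0.23 SE), and the membrane protease gene Mmp14 from 227, 316, 244 and 267 to 372, 343, 425 and 344 (DESeq2 adjusted p = 0.0226, log2 fold change 0.49 ± 0.13 SE). The matrix gene Dpt was called lower (DESeq2 adjusted p = 0.0484, log2 fold change -1.62 ± 0.47 SE), with 40.7, 40.4, 117 and 42.1 in the middle-aged livers and 38.1, 13.5, 16.6 and 10.7 in the aged livers. The ages only just did not overlap, and 1 middle-aged liver, replicate 3, stood far above the rest. The same liver was highest of the 8 in the adipocyte markers Adipoq, at 0, 11.7, 89.2 and 0 in the middle-aged livers and 0, 0, 0 and 0 in the aged livers, and Plin1, at 0, 0, 84.8 and 0 in the middle-aged livers and 0, 0, 0 and 0.894 in the aged livers. The sum of all 11 adipocyte markers was lowest of the 8 in this liver, at 20852 against 21982 to 41475. In the aged livers nearly all of that sum was Car3, a gene that liver also expresses, so the sum says little about adipocytes. Without this liver the log2 fold change of Dpt was -1.07 and did not pass (DESeq2 adjusted p = 0.405). The stellate cell and fibroblast list to which Dpt belongs summed to 3369 to 5091 in middle-aged and 3252 to 5222 in aged livers.

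Blood cell markers gave no call over all livers but ranged widely. All 5 tested erythroid and platelet markers lay below 0 (median -1.30), where 51.2% of all tested genes lay above 0. Their list summed to 12849 to 50038 in middle-aged and 9710.4 to 21287 in aged livers, with the 2 highest sums in middle-aged replicates 3 and 4. The haemoglobin gene Hbb-bt, for example, was at 802, 1357, 4158 and 3542 in the middle-aged livers and 1544, 572, 1085 and 692 in the aged livers (DESeq2 adjusted p = 0.419). The 17 T cell and NK cell markers summed to 82.4 to 144 in middle-aged and 55.1 to 80.3 in aged livers, which did not overlap, but no single marker was high enough to receive an adjusted p. B cell and plasma cell markers summed to 516 to 3853 in middle-aged and 878 to 1799 in aged livers, Kupffer cell and macrophage markers to 6107 to 10426 in middle-aged and 7327 to 9904 in aged livers and sinusoidal endothelial markers to 3364 to 4125 in middle-aged and 3589 to 3995 in aged livers. Markers from outside the liver stayed low. The pancreatic list summed to 430.0 to 546 in middle-aged and 259.5 to 806 in aged livers, with 4 of its 15 markers (Prss1, Try4, Pnlip and Amy2a5) at 0 in all 8 livers. The gallbladder and gut list summed to 385 to 607 in middle-aged and 603 to 889.6 in aged livers, with 4 of 10 (Tff1, Muc5ac, Reg3b and Krt20) at 0 and most of the sum in Fabp2, a gene that liver also expresses. The neutrophil list summed to 13.9 to 38.6 in middle-aged and 12.5 to 100.4 in aged livers, with Ly6g at 0. The part of these cells in the called changes was not tested.

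**Figure D3:**
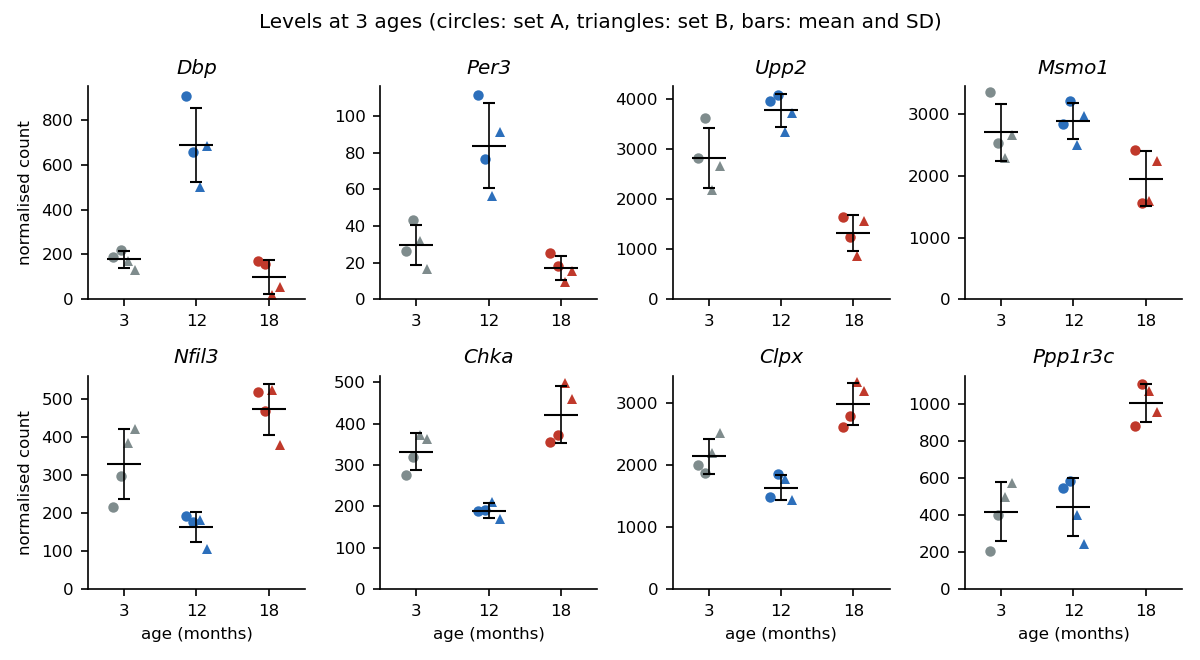
Normalised counts of 8 called genes in every liver at 3, 12 and 18 months (circles, set A; triangles, set B; bars, mean and SD of 4 livers). Dbp, Per3, Upp2 and Msmo1 have their lowest means at 18 months, and Nfil3, Chka, Clpx and Ppp1r3c their highest, with the young livers of Nfil3, Chka and Clpx between the other ages on average.

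The plot of levels at 3 ages sets the late change beside the young livers. Dbp stood at 178 ± 37.6 in young, Per3 at 29.6 ± 11.1 and Wee1 at 18.6 ± 5.20 (SD, n = 4), well below their middle-aged means of 689, 83.8 and 61.3. Msmo1, at 2709 ± 463, and Upp2, at 2826 ± 599, were above their aged means of 1956 and 1324 at the young age. Ppp1r3c and Sox9 had young levels (419 ± 159.6 and 44 ± 13.9) near their middle-aged means of 444 and 41.0. The comparisons of these ages share livers, so their fold changes are given side by side only. For Chka the log2 fold change was -0.81 between middle-aged and young, 1.15 between aged and middle-aged and 0.34 between aged and young livers. For Nfil3 the 3 values were -1.01, 1.53 and 0.52, and for Mmp14 0.33, 0.49 and 0.82.

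For some metabolic genes the late change took opposite directions in the 2 sets. The DESeq2 interaction test, which compares the aged-to-middle-aged change of set B with that of set A, called 124 of 12454 genes (0.996%), 65 with a higher and 59 with a lower change in set B; edgeR called 49, of which 48 were among the 124. With 2 livers per age and set, a set and the individual animals in it cannot be told apart. Only Dbp and Tubb2a were also among the 117. The genes named in this account of the sets were chosen after their values were seen.

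In fatty acid synthesis 12 of 18 genes were called by the interaction test, all with a higher change in set B, against 0.996% of all genes given that test. The lists of cholesterol synthesis, the urea cycle, the one-carbon cycle and nucleoside breakdown had 0 such calls. Fasn (ENSMUSG00000025153, minus strand of chromosome 11 from 120805846 to 120824547) encodes fatty acid synthase. It counted 11479 and 13264 in the middle-aged and 4075 and 4105 in the aged livers of set A, and 5282 and 9789 against 10103 and 11583 in set B. In set A the aged livers were below the middle-aged ones, and in set B they were above them (difference 2.12 ± 0.56 SE, DESeq2 interaction adjusted p = 0.0197). The elongase gene Elovl6 (ENSMUSG00000041220, plus strand of chromosome 3 from 129532355 to 129638495) counted 2898 and 2119.7 in the middle-aged and 639 and 960.4 in the aged livers of set A, and 1089 and 1728 against 2609 and 2453 in set B (difference 2.5 ± 0.39 SE, DESeq2 interaction adjusted p = 6.42e-08). Malic enzyme, encoded by Me1 (ENSMUSG00000032418, minus strand of chromosome 9 from 86581371 to 86695953) and a source of NADPH, counted 2886 and 3511 in the middle-aged and 658 and 1203 in the aged livers of set A, and 1637 and 2049.6 against 3686 and 3932 in set B (difference 2.83 ± 0.37 SE, DESeq2 interaction adjusted p = 4.57e-11). For all 3 genes the aged pair of set A was lower while the aged pair of set B was higher. Srebf1, the transcription factor gene of this pathway, differed by 1.21 ± 0.22 SE, Scd1 by 1.46 ± 0.35, Acacb by 1.66 ± 0.34, Acss2 by 1.31 ± 0.33, Elovl5 by 1.68 ± 0.26 and Thrsp by 2.46 ± 0.63 (DESeq2 interaction adjusted p = 8.75e-06, 0.00525, 0.000318, 0.00977, 4.65e-08 and 0.0133). The list median was -1.03 within set A and 0.27 within set B.

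**Figure D4:**
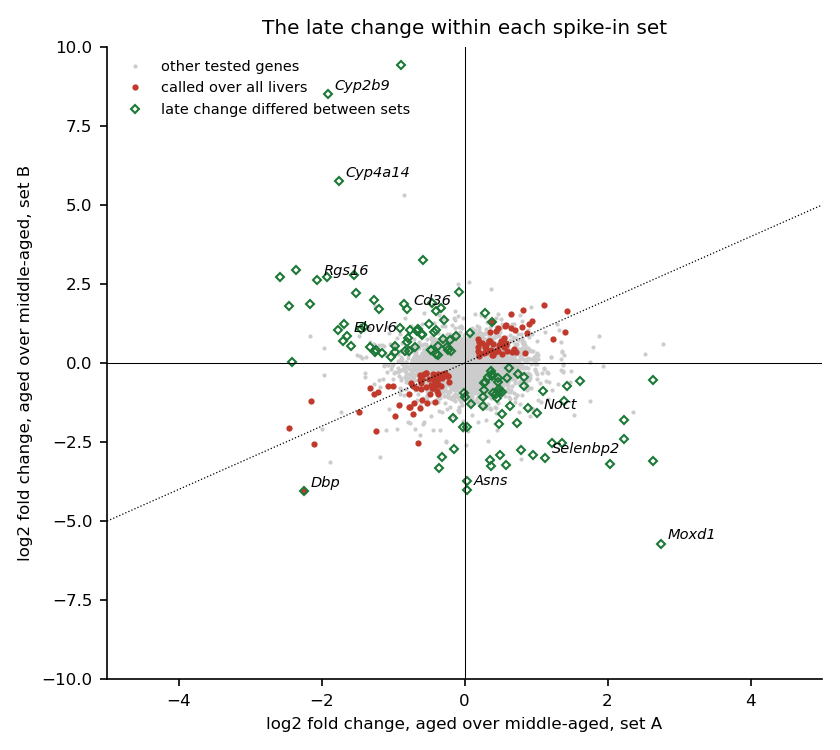
Log2 fold change, aged over middle-aged, within set A (x axis) and within set B (y axis) for each tested gene (red, called over all livers; green, late change differed between sets; dotted line, equal change). The red genes lie in the 2 quadrants of equal sign, while most green genes lie in those of opposite sign or near an axis. Both groups were chosen by tests on these same livers, so their positions follow largely from that choice.

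Some PPAR alpha targets and cytochromes P450 were also called by the interaction test. The fatty acid transporter gene Cd36 counted 594 and 624 in the middle-aged and 261 and 432 in the aged livers of set A, and 453 and 361 against 1502 and 1132 in set B (difference 2.51 ± 0.35 SE, DESeq2 interaction adjusted p = 1.2e-09). The omega-hydroxylase gene Cyp4a14 counted 314 and 136 in the middle-aged and 20.1 and 113 in the aged livers of set A, and 44.2 and 43.1 against 3452 and 1204 in set B (difference 7.50 ± 1.72 SE, DESeq2 interaction adjusted p = 0.00296). Cyp2b9 counted 13.9 and 0.898 in the middle-aged and 1.0 and 2.89 in the aged livers of set A, and 1.77 and 1.0 against 629 and 398 in set B (DESeq2 interaction adjusted p = 1.25e-10). Its 2 set B aged livers were the only ones of the 8 above 14 normalised counts. The interaction test called 5 of 35 genes of the PPAR alpha and oxidation list and 4 of 35 of the drug-metabolising list, against 0.996% of all genes given that test. All of them had a higher change in set B, among them Cyp3a11 (2.52 ± 0.54 SE, DESeq2 interaction adjusted p = 0.000903). Members of the Cyp2b, Cyp3a and Cyp4a families share sequence, so reads can be split between copies.

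Other genes had a lower late change in set B. Serpina1e, an alpha-1-antitrypsin copy, counted 48159.9 and 61043 in the middle-aged and 100643 and 61969 in the aged livers of set A, and 87579.7 and 70388 against 5792 and 11121 in set B (difference -3.80 ± 0.51 SE, DESeq2 interaction adjusted p = 1.27e-10). The terminal complement gene C6 (ENSMUSG00000022181, plus strand of chromosome 15 from 4727175 to 4814967) counted 1559.8 and 2001 in the middle-aged and 2618 and 2328 in the aged livers of set A, and 2032 and 1845 against 1019 and 1184 in set B (difference -1.29 ± 0.21 SE, DESeq2 interaction adjusted p = 5.67e-07). In both the set B aged livers were the lowest of the 8. C8a (-1.07 ± 0.21 SE) and C9 (-1.12 ± 0.23) differed in the same direction. The interaction test called 5 of 36 genes of the complement and coagulation list, all with a lower change in set B, against 0.996% of all genes given that test. Selenbp2 counted 5522 and 3660.3 in the middle-aged and 12748 and 7331 in the aged livers of set A, and 7257 and 5348 against 520.0 and 1055 in set B (difference -4.13 ± 0.63 SE, DESeq2 interaction adjusted p = 4.65e-08). The amino acid synthesis gene Asns counted 174 and 211 in the middle-aged and 259.9 and 136 in the aged livers of set A, and 184 and 301 against 14 and 16.1 in set B (difference -4.05 ± 0.67 SE, DESeq2 interaction adjusted p = 6.37e-07). Noct counted 755 and 602 in the middle-aged and 1221 and 1519 in the aged livers of set A, and 801 and 776 against 305 and 217 in set B. It rose within set A (1.02, DESeq2 adjusted p = 0.00531) and fell within set B (-1.59, DESeq2 adjusted p = 9.22e-11), a difference of -2.61 ± 0.31 SE (DESeq2 interaction adjusted p = 2.76e-13).

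Several marker lists also set aged replicates 3 and 4 apart from the other 6 livers. The periportal hepatocyte list summed to 52322 and 54482 normalised counts in these livers, against 65183 to 83944 in the other 6, and the hepatocyte list to 969036 and 1083705, against 836933 to 946272. The adipocyte list summed to 37570 and 41475, against 20852 to 27132. Nearly all of that sum was Car3, a carbonic anhydrase that liver also expresses, at 21911, 21839, 36845 and 41147 in the aged livers, and the defining marker Adipoq was at 0 in all 4 of them. The gallbladder and gut list stood at 889.6 and 752 against 385 to 639, and the pancreatic list at 259.5 and 378 against 430.0 to 806. The part of these markers in the differences between sets was not tested.

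**Figure D5:**
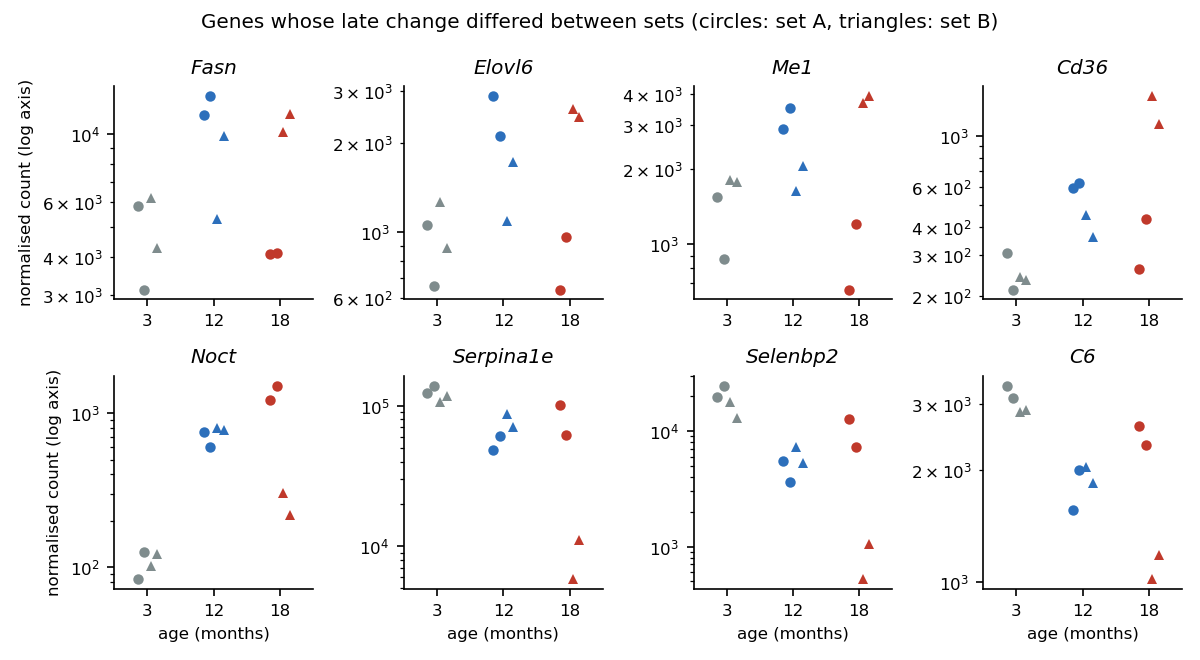
Normalised counts on a log axis of 8 genes whose late change differed between sets, in every liver at 3, 12 and 18 months (circles, set A; triangles, set B). At 18 months the 2 sets stand apart in each gene, with set B above set A in Fasn, Elovl6, Me1 and Cd36 and below it in Noct, Serpina1e, Selenbp2 and C6.

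The genes in the plot by set and age were chosen because the sets part, which widens their spread at 18 months. For Selenbp2 the 4 aged values were 12748, 7331, 520.0 and 1055 and their SD was 5786, against 1470 at 12 months, and for Serpina1e the SD was 44978 against 16586. Over all livers these genes had log2 fold changes with wide errors, -0.01 ± 0.79 SE for Selenbp2 and -0.57 ± 0.56 SE for Serpina1e, and neither passed the test (DESeq2 adjusted p = 1 and 0.854).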

How the data were processed

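The authors deposited 1 table of counts, whole-number read counts per Ensembl gene and per spike-in, not normalised, for 12 livers; no column was left without a sample. Per the labels, the submitters' processing notes name STAR 2.5.2b, SAMtools 1.9, featureCounts, R 3.6.3, edgeR 3.28.1, DESeq2 1.26.0 and the builds mm10 and GRCm38, with no role or order, and no strand setting is given. Whether the libraries come from the study or from the public atlas it used is uncertain; all 4 aged livers were used. Members, lists, motifs and tests were chosen with earlier results of these data known.

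DESeq2 1.42.0 (R 4.3.3) was run on the deposited counts of all 12 livers with age as the factor, median-of-ratios size factors, genes with at least 1 count (28449 of 53465), default independent filtering and a threshold of 0.05 on the Benjamini-Hochberg adjusted p. Normalised counts are counts divided by size factors; log2 fold changes carry SE, and means carry SD (n = 4). Alternatives were limma 3.58.1 voom, quasi-likelihood tests of edgeR 4.0.16, TMM factors, filters, only the 8 livers, a replicate block, a covariate for the spike-in set, fits inside each set, length and GC offsets and leaving out each liver. A filter within the block and a fit without young replicate 3 and middle-aged replicate 1 were added after the data were seen. The interaction test used age, set and their product. Named genes were the 15 that rose and 15 that fell most among called genes with a mean of at least 50 and no overlap, genes called by DESeq2 and edgeR, the 25 genes of the 2 clock lists, and called members of each list or up to 3 with the smallest p; genes named beyond these were chosen after their values were seen, and some genes that the rule names are not reported here. Positions are GENCODE M21 (GRCm38), which matched 53360 of the 53465 identifiers. P-values measure the spread between animals. The scripts were tested on simulated data.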

Additional observations from a re-analysis of the deposited data

Results flagged for a closer look

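Of 114 groups of 4 livers examined for 1 value far from the rest (by Dixon's ratio), 2 were picked out, where chance would pick out about 1 in 20. Mug2 stood at 4334 normalised counts in middle-aged replicate 1, against 2607 to 2638 in the other middle-aged livers, and Gm26917 at 887 in the same liver, against 699.6 to 725. That library also had the most genes detected of the 8, 19982. No cause was tested.

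The late change differed between spike-in sets by the DESeq2 interaction test (set B minus set A, log2 scale, 124 genes called) for the following named genes. Among genes followed for other reasons the difference was 0.92 for Tubb2a (DESeq2 interaction adjusted p = 0.0077), -1.82 for Dbp (adjusted p = 0.00977) and -2.61 for Noct (adjusted p = 2.76e-13). The 10 most positive differences among genes with a mean of at least 50 over all 12 livers were 10.40 for Cyp2b9, 7.50 for Cyp4a14, 4.69 for Rgs16, 4.01 for Nt5e, 3.83 for Cyp4a10, 3.25 for Tceal8, 2.92 for Lipg, 2.83 for Me1, 2.72 for Cyp2c38 and 2.52 for Cyp3a11. The 10 most negative were -8.47 for Moxd1, -5.74 for Mup8, -5.24 for Gadd45g, -4.65 for Socs3, -4.13 for Selenbp2, -4.05 for Asns, -3.90 for Capn8, -3.80 for Serpina1e, -3.77 for Babam2 and -3.76 for Tff3. In Babam2 the values were 178, 169, 171 and 145 in the middle-aged livers and 189, 167, 11.4 and 12.5 in the aged livers, with aged replicates 3 and 4 far below the other 6 livers. The 2 livers of an age in a set are also 2 individual mice, and these cannot be told apart.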

How the results depend on the processing

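The number of genes called between aged and middle-aged livers depended on the test and on single livers. Against 117 genes, edgeR called 13, limma-voom with quality weights 50 and DESeq2 without independent filtering 62 (more genes tested); the counts were 34 within set A and 307 within set B, where 2 livers stood against 2. Only the 8 livers (129), TMM factors (104), the requirement of 10 counts in 4 samples (112), the set as covariate (109) and length and GC offsets (134) stayed within 1.5 times. The genes were not all the same: of the 117, these fits called 89, 101, 104, 97 and 87, in that order. Leaving out 1 liver gave 45 to 198 genes: 73 without middle-aged replicate 1, 73 without replicate 2, 61 without replicate 3 and 45 without replicate 4, and 198, 107, 56 and 55 without aged replicates 1, 2, 3 and 4. Without both young replicate 3 and middle-aged replicate 1, an alternative chosen after seeing the data, 60 genes were called. The cause was not tested.

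With the replicate number as a block 426 genes were called, 370 of them lower in aged livers. Of those 370, 316 had a mean under 10 normalised counts; young replicate 3 held 60.3% of their summed counts and middle-aged replicate 1 31.8%. With the block and the count filter, also chosen after seeing the data, 67 were called, 56 of them among the 117. The numbers did not pair the animals: correlations of same-numbered deviations over 8888 genes were -0.09, 0.16, 0.03 and -0.07.

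The interaction with the spike-in set called 124 genes, and edgeR 49. Leaving out 1 liver gave 62 to 167, with 66 without middle-aged replicate 2, 62 without replicate 3, 73 without aged replicate 1 and 62 without aged replicate 3; the lone liver left in an arm was assumed to vary like the others.

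Of 48 named genes called between the ages, 7 were called under every alternative that gave an adjusted p, and none changed sign; edgeR kept 13, limma-voom 28 and the fit without middle-aged replicate 4 29. Noct, not called over all livers, had a log2 fold change of 0.15 over all and fell by 1.59 within set B. Genes that passed in neither fit were not followed for sign. Across tested genes fold changes had a rank correlation of -0.19 with exonic length and of -0.001 with GC content; genes are not independent replicates. Depth (9238313 to 10527159 counts per liver) limits calls among low genes, such as the T cell markers.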
